A study of Arabidopsis thaliana with 4 samples.

Results

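Long noncoding RNA (lncRNA) genes of *Arabidopsis thaliana* leaves were examined in 4 mRNA-Seq libraries of a study of the histone methyltransferase homolog SUVR5 and the histone demethylase homologs LDL1 and LDL2. Members were chosen by annotation and by read number: genes given the biotype lncRNA in TAIR10.1, with no exon shared with another gene, and with at least 20 read starts on their exons summed over the libraries. Of 3480 lncRNA genes annotated on the nuclear chromosomes, 1622 lay in the stretches of the genome where reads could be assigned to genes, 973 of these shared an exon with another gene, and 649 did not. Among the 649, no read was found for 538 genes, 99 had 1 to 19 reads, and 12 passed the minimum. Counts were made for 16873 genes in all.

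All plants were of the Col-0 ecotype, were grown in long days and gave leaf RNA at an age of 3 weeks. The genotypes, each with 1 library, were the wild type (Col-0), *suvr5-1* alone, *ldl1-2 ldl2* with both demethylase homologs mutated, and *suvr5-1 ldl1-2 ldl2*, which carries all 3 mutations and is called the triple mutant. Poly(A) RNA was sequenced, so transcripts without a poly(A) tail are poorly represented. With 1 library per genotype no difference has a replicate check, and every test below compares the reads of a pair of libraries, not the genotypes. Nothing in the labels says how many plants were pooled, and in bulk leaf tissue fewer cells of a type and less RNA per cell cannot be told apart.

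An lncRNA is a transcript longer than a small RNA that has no recognised protein-coding frame. Plant lncRNAs are transcribed mostly by RNA polymerase II, many are capped and polyadenylated, and known examples sequester a microRNA, serve as precursors of small RNAs or act at the chromatin of a neighbouring gene. SUVR5 carries a SET domain, the fold of histone lysine methyltransferases, and LDL1 and LDL2 are related to the human demethylase LSD1, so that the mutants address genes kept silent or active through histone methylation.

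Values of the libraries are listed throughout in the order Col-0, *suvr5-1*, *ldl1-2 ldl2*, triple mutant. As the scale served the reads on genes, summed over genes, which came to 3068226, 4736148, 2719739 and 3141490. A read on exons that genes share enters this sum once for each gene. Counted once each, the reads on exons were 2872825, 4453909, 2518563 and 2903682. *LDL2* had 25, 26, 8 and 5 reads, while *SUVR5* and *LDL1* lie outside the stretches and were not analysed here. All 5 leaf markers were read in every library with a summed level of 28430 to 38094 RPKM (reads scaled by exon length in kilobases and by the reads on genes), and the root and seed markers summed to at most 0.531 RPKM. The anther markers summed to 4.14, 5.15, 16.1 and 4.39 RPKM; of these 4 genes *ATA20* alone had reads in every library, and *A9* had none. Col-0 stood apart in the ribosomal RNA gene AT2G01010, with 20568 reads against 1581 to 1782 in the mutants.

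The sequences of the lncRNAs on which the comparisons turned are given as transcribed, 5′ to 3′, read from the TAIR10.1 genome (the reads themselves were mapped to another assembly). AT1G06537 (chr1:11672237-11672483, minus strand) is shown with AT1G09125 (chr1:11671499-11671674, minus strand), a gene of the biotype misc_RNA beside it that is related in sequence. Capitals mark the longest run of bases that both share, which is 16 bases long.
AT1G06537: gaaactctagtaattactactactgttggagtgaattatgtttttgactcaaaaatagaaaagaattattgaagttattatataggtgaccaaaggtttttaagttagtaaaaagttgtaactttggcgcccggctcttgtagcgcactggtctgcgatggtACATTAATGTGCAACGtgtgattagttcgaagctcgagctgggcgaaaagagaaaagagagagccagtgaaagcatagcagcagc
AT1G09125: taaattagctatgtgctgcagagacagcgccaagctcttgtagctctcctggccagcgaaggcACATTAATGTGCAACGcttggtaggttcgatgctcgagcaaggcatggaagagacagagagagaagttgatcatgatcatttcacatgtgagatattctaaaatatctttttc
AT1G05963 (chr1:8924184-8924454, minus strand) was higher in *ldl1-2 ldl2*, and AT5G03395 (chr5:7421048-7421568, plus strand) was higher in *suvr5-1*. AT1G05963 is whole, and AT5G03395 is given from base 1 to base 300 of 521.
AT1G05963: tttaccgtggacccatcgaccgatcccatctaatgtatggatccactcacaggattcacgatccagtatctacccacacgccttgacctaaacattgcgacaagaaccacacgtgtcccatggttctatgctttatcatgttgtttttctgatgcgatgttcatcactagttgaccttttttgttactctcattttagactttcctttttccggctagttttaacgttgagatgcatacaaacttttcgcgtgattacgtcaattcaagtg
AT5G03395: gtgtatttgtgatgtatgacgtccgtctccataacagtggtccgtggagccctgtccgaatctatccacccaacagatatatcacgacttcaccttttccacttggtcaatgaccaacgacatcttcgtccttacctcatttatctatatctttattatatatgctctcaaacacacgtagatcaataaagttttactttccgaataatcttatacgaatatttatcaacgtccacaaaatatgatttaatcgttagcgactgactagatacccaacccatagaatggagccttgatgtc

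The 12 lncRNA genes were short, mostly of 1 exon and without a name. Of them, 11 had 1 exon and AT5G01595 had 3 exons, with exon lengths summing to between 247 and 790 bp (median 501). The G+C content ran from 32.6% to 45.1%, and the longest open reading frame from 6 codons in AT1G06537 to 76 in AT3G03165. On the minus strand were 8 genes and on the plus strand 4. Chromosome 1 held 4 of them, chromosomes 4 and 5 held 3 each, and chromosomes 2 and 3 held 1 each. Other exons lay within 500 bp of 7 members and within 100 bp of 3, and 1 member, AT5G01595, overlapped the span of another gene. SUVR5 has zinc fingers, for which the study derived the octamer TACTAGTA. Its letters, a palindrome and so the same on both strands, were looked for from 250 bp before to 50 bp after each annotated start. None of the 12 windows held them, against 9 of the 649 lncRNA windows (1.39%) and 140 of the 16873 windows of all genes (0.830%). At shares this low, 12 windows cannot tell whether the members differ from other genes. The study counted significant motif matches in promoters, which is another measure than these exact letters in this window.

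Levels of lncRNA genes were low as a class. Only 1.85% of the 649 lncRNA genes reached 20 reads, whereas 62.6% of the 9272 protein-coding genes and 20.9% of the 211 genes of the other noncoding biotypes (ncRNA, antisense_RNA and misc_RNA) did, and 82.9%, 19.4% and 47.9% of these classes had no read. The median length was 285 bp for these lncRNA genes, 1564 bp for the protein-coding genes and 505 bp for the other noncoding biotypes. The part of gene length in these shares was not tested, and the shares are a description. Genes that passed had a median level of 7.68, 7.37, 9.93 and 5.96 RPKM for lncRNAs and of 12.0, 12.4, 12.4 and 13.7 RPKM for protein-coding genes. Just inside the minimum were AT1G05133 (20 reads), AT4G04865 and AT5G01595 (21 each) and AT5G03615 (22). Just outside it were AT3G03325, with 7, 5, 0 and 5 reads, and AT4G07815, with 0, 2, 5 and 10. Because the minimum was a sum, 6 of the 12 members would not have reached it without their highest library, namely AT4G06880 (19 reads in the others), AT5G03615 and AT1G05133 (11 each), AT5G01595 (9), AT1G05963 (6) and AT4G04865 (0). A count of differences among the 12 is therefore no evidence about lncRNAs in general, and calls of these 6 in which that library takes part are a description of the reads that chose them.

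The reads of the 12 genes were concentrated on few of them. AT4G38932 alone took 65.7% of the 2825 reads, and AT4G38932, AT1G06537 and AT2G05075 together took 87.0%. Summed over the 12 genes there were 867, 1043, 443 and 472 reads, or 283, 220, 163 and 150 RPM (reads scaled by the reads on genes, without length), and without AT4G38932 the sums were 110, 57.9, 59.6 and 61.4 RPM. Col-0 was thus highest in both sums. Of the 339 Col-0 reads left without AT4G38932, AT1G06537 held 188 and AT2G05075 held 82. Without these genes as well, Col-0 was no longer highest, so its lead rests on few genes. A read was found for 11 members in each of the first 3 libraries and for 9 in the triple mutant, and 8 members had a read in every library.

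**Figure D1:**
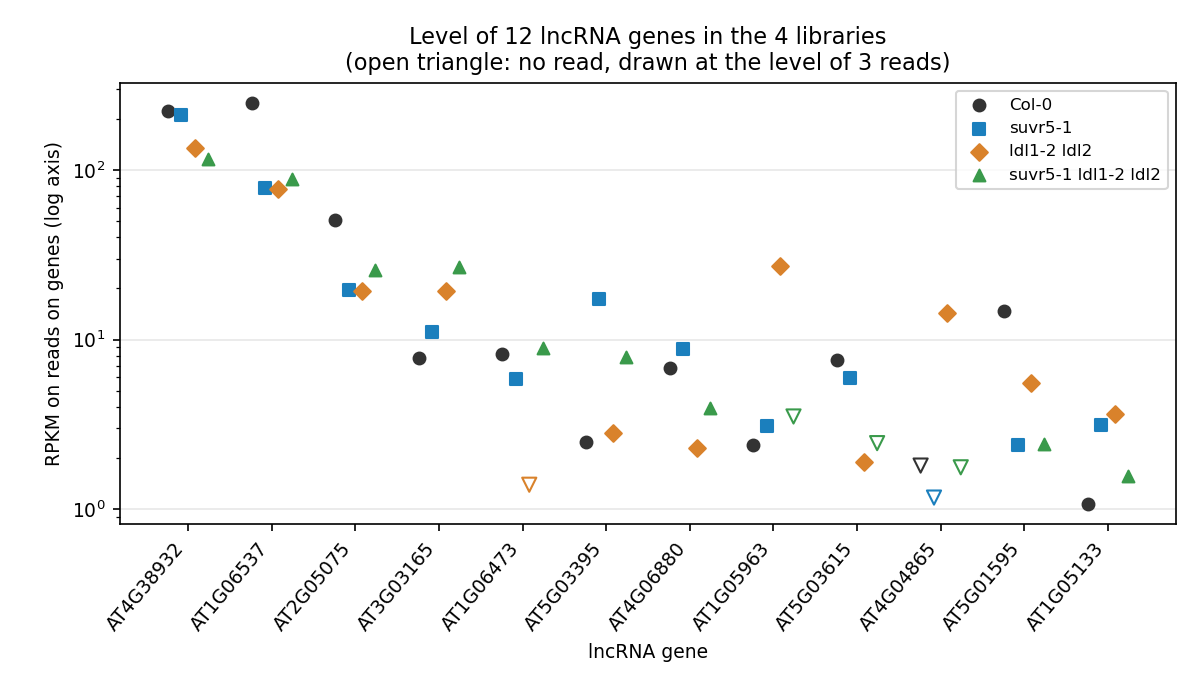
Level of each of the 12 lncRNA genes (horizontal axis, in order of total reads) in RPKM on a log axis, with 1 point per library; open triangles mark libraries without a read, drawn at the level 3 reads would give. AT1G06537 and AT2G05075 are highest in Col-0, whereas AT1G05963 and AT4G04865 are highest in *ldl1-2 ldl2* and AT5G03395 in *suvr5-1*.

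The comparison of *suvr5-1* with Col-0 asks which lncRNAs depend on SUVR5 in leaves. Calls required a ratio of scaled reads past 4-fold in either direction and that the Benjamini-Hochberg adjusted P of a two-sided Fisher's exact test was under 0.01. AT5G03395 was called higher and AT5G01595 lower among 11 members with a read in either library, while 2.58% of the 11773 genes tested were called higher and 1.83% lower. With a 2-fold threshold, the calls were 1 higher and 3 lower, against 6.18% and 4.99% of all genes tested. The median log2 ratio of the tested members (0.5 read added to each library) was -0.08, and that of all genes without exon overlap that passed the read minimum was 0.03. Among the 4 tested members at least 500 bp from other exons it was 0.89, so its sign rests on which members are kept.

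AT5G03395 had 4, 43, 4 and 13 reads, or 2.50, 17.4, 2.82 and 7.94 RPKM. It was highest in *suvr5-1*, lay at 4 reads in both Col-0 and *ldl1-2 ldl2*, and was between them in the triple mutant. The ratio of *suvr5-1* to Col-0 was 6.96 (exact 95% interval 2.53 to 26.7, adjusted P = 2.62e-05, Fisher's exact test with Benjamini-Hochberg adjustment). The reads of *suvr5-1* started at 22 positions and those of Col-0 at 2, and with each position and strand counted once the call was kept (adjusted P = 9.08e-04, Fisher's exact test with Benjamini-Hochberg adjustment). A beta-binomial test that allows a dispersion of 0.1 beyond counting error gave an adjusted P of 0.244 and no call. Against *suvr5-1*, *ldl1-2 ldl2* was lower at a ratio of 0.162 (0.0422 to 0.446). In the triple mutant the ratio to Col-0 was 3.17 (0.981 to 13.4) and did not pass the test (adjusted P = 0.113, Fisher's exact test with Benjamini-Hochberg adjustment). The nearest protein-coding gene, AT5G22400, lies 1101 bp away and had 26, 91, 44 and 55 reads. Its log2 ratios to Col-0 were 1.16, 0.92 and 1.03 in *suvr5-1*, *ldl1-2 ldl2* and the triple mutant, all below 4-fold (adjusted P = 7.37e-04, 0.0249 and 0.00645, Fisher's exact test with Benjamini-Hochberg adjustment).

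AT5G01595 (chr5:226972-229286, plus strand) had 12, 3, 4 and 2 reads and was highest in Col-0. The ratio of *suvr5-1* to Col-0 was 0.162 (0.0293 to 0.600), and the triple mutant had nearly the same ratio, 0.163 (0.0177 to 0.731), without passing the test (adjusted P = 0.0210, Fisher's exact test with Benjamini-Hochberg adjustment). Its call is a description, since the reads of Col-0 brought it past the minimum. The third of its exons abuts an exon of *FER1*, which encodes the iron-storage protein ferritin and runs on the opposite strand. *FER1* itself had 1088, 620, 367 and 393 reads, a log2 ratio to Col-0 of -1.44, -1.39 and -1.50 in the 3 mutants. When 30 bp were trimmed from exon ends, AT5G01595 kept 2, 3, 0 and 0 reads and the call was lost (adjusted P = 1, Fisher's exact test with Benjamini-Hochberg adjustment), and strand was not used, so its reads cannot be told apart from those of *FER1*.

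**Figure D2:**
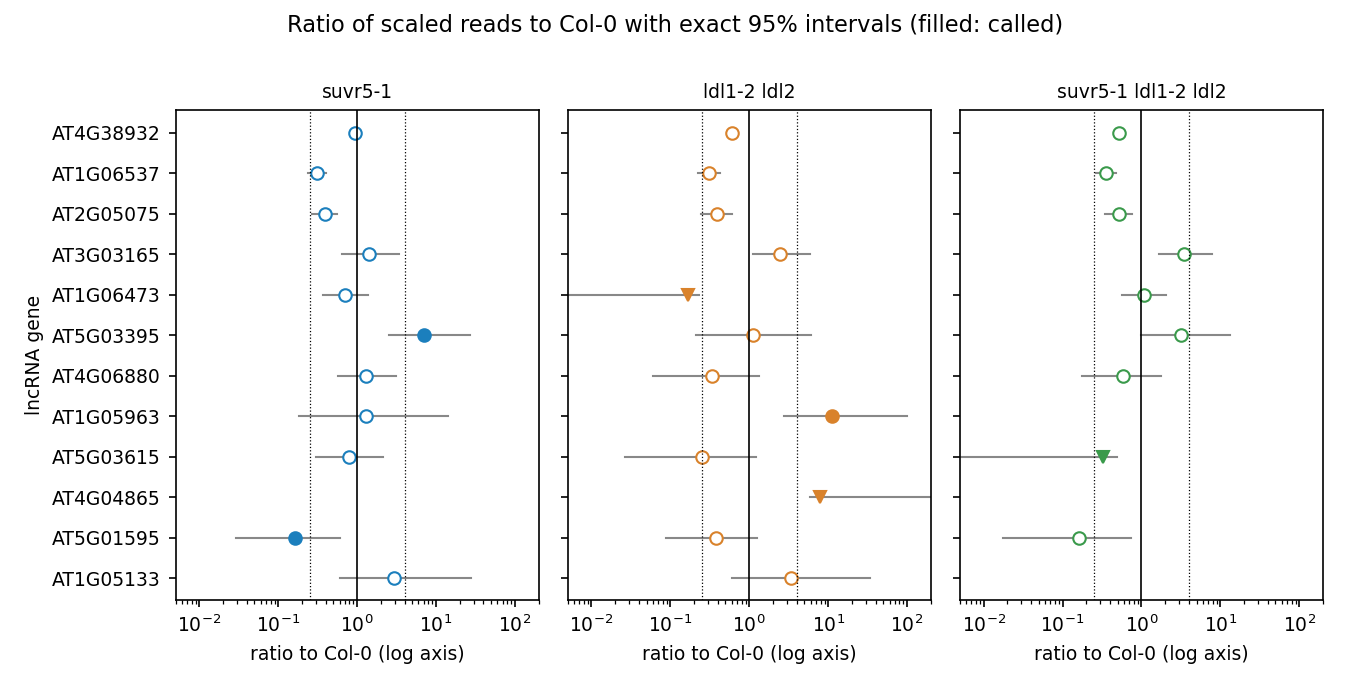
Ratio of scaled reads to Col-0 for the 12 lncRNA genes (vertical axis), with a panel for each mutant, on a log axis, with exact 95% intervals of counting error; triangles are ratios computed with 3 reads in place of none, filled symbols were called, dotted lines mark 4-fold, and pairs with at most 3 reads in both libraries are left out. AT1G06537 and AT2G05075 lie left of 1 in every panel with narrow intervals, and the called genes of low counts have wide ones.

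In *ldl1-2 ldl2* against Col-0, AT1G05963 and AT4G04865 were called higher and AT1G06473 lower, among 12 members tested, against 4.24% higher and 2.06% lower of 11726 genes. At 2-fold, 2 members were higher and 3 lower, against 8.78% and 6.17%. The median log2 ratio was -1.02 for the members and -0.06 for all genes without exon overlap that passed the minimum, and it turned to 1.27 among the 5 members at least 500 bp from other exons. Each of the 3 called genes had 20 or 21 reads in 1 of the libraries compared and at most 2 in the other.

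AT1G05963 had 2, 4, 20 and 0 reads, or 2.41, 3.12, 27.1 and 0 RPKM, and was highest in *ldl1-2 ldl2* alone. The ratio to Col-0 was 11.3 (2.74 to 99.5) and that to *suvr5-1* was 8.71 (2.92 to 35.0). These are given as a description without a test, since the *ldl1-2 ldl2* library alone brought the gene past the minimum. The 20 reads started at 7 positions, and both counting each position once and the beta-binomial test ended the call against Col-0. The nearest protein-coding gene, *CLE43*, whose family encodes small signalling peptides, lies 304 bp away and had 19, 27, 31 and 23 reads, none of these differences being called.

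AT4G04865 (chr4:2188106-2188645, minus strand) had 0, 0, 21 and 0 reads. On its exon it was read in *ldl1-2 ldl2* alone, which alone brought it past the minimum, so its values too are a description without a test. In the 200 bp before its start lay 3 reads in Col-0 and 3 in *ldl1-2 ldl2*, and in the 200 bp past its end 2 in the triple mutant. Its level on the exon there was 14.3 RPKM, at least 7.90-fold higher than in Col-0 with 3 reads per library as the limit of a count of 0. All 21 reads started at 4 positions, with up to 6 at 1 position, and the call was lost when each position was counted once. The nearest annotated protein-coding gene, AT4G04415, lies 5514 bp away and had no read in any library. The anther marker *ATA20* was also highest in this library, with 20, 20, 69 and 21 reads. The other anther markers did not share this, as *A9* had no read, *MS1* had 0, 0, 0 and 1, and *ATA7* had 0, 9, 0 and 0. The part of other tissue in the levels of AT1G05963 and AT4G04865 was not tested.

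AT1G06473 (chr1:11471861-11472650, minus strand) had 20, 22, 0 and 22 reads. It was read at like counts in 3 libraries and not at all in *ldl1-2 ldl2*. The ratio of *ldl1-2 ldl2* to Col-0 cannot be given for a count of 0, and with 3 reads in place of none the level was 5.91-fold lower. The exact 95% interval of the ratio ran from 0 to 0.229 (adjusted P = 2.25e-05, Fisher's exact test with Benjamini-Hochberg adjustment). In the other libraries the reads started at 10 to 14 positions. With each position counted once the adjusted P was 0.0128 (Fisher's exact test with Benjamini-Hochberg adjustment), and with the beta-binomial test it was 0.0237, so that both ended the call. The gene is one of a family of related sequences, since 10 other places in the genome matched it at 67.9% to 73.9% identity, among them the lncRNA genes AT1G67365, AT2G05505, AT3G06955 and AT3G06095 and the myosin gene *ATM1*. No match reached 95% identity. Its protein-coding neighbour AT1G31940, 379 bp away, had 97, 128, 49 and 114 reads and a log2 ratio of -0.80 in *ldl1-2 ldl2* (adjusted P = 0.00452, Fisher's exact test with Benjamini-Hochberg adjustment), below 4-fold.

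**Figure D3:**
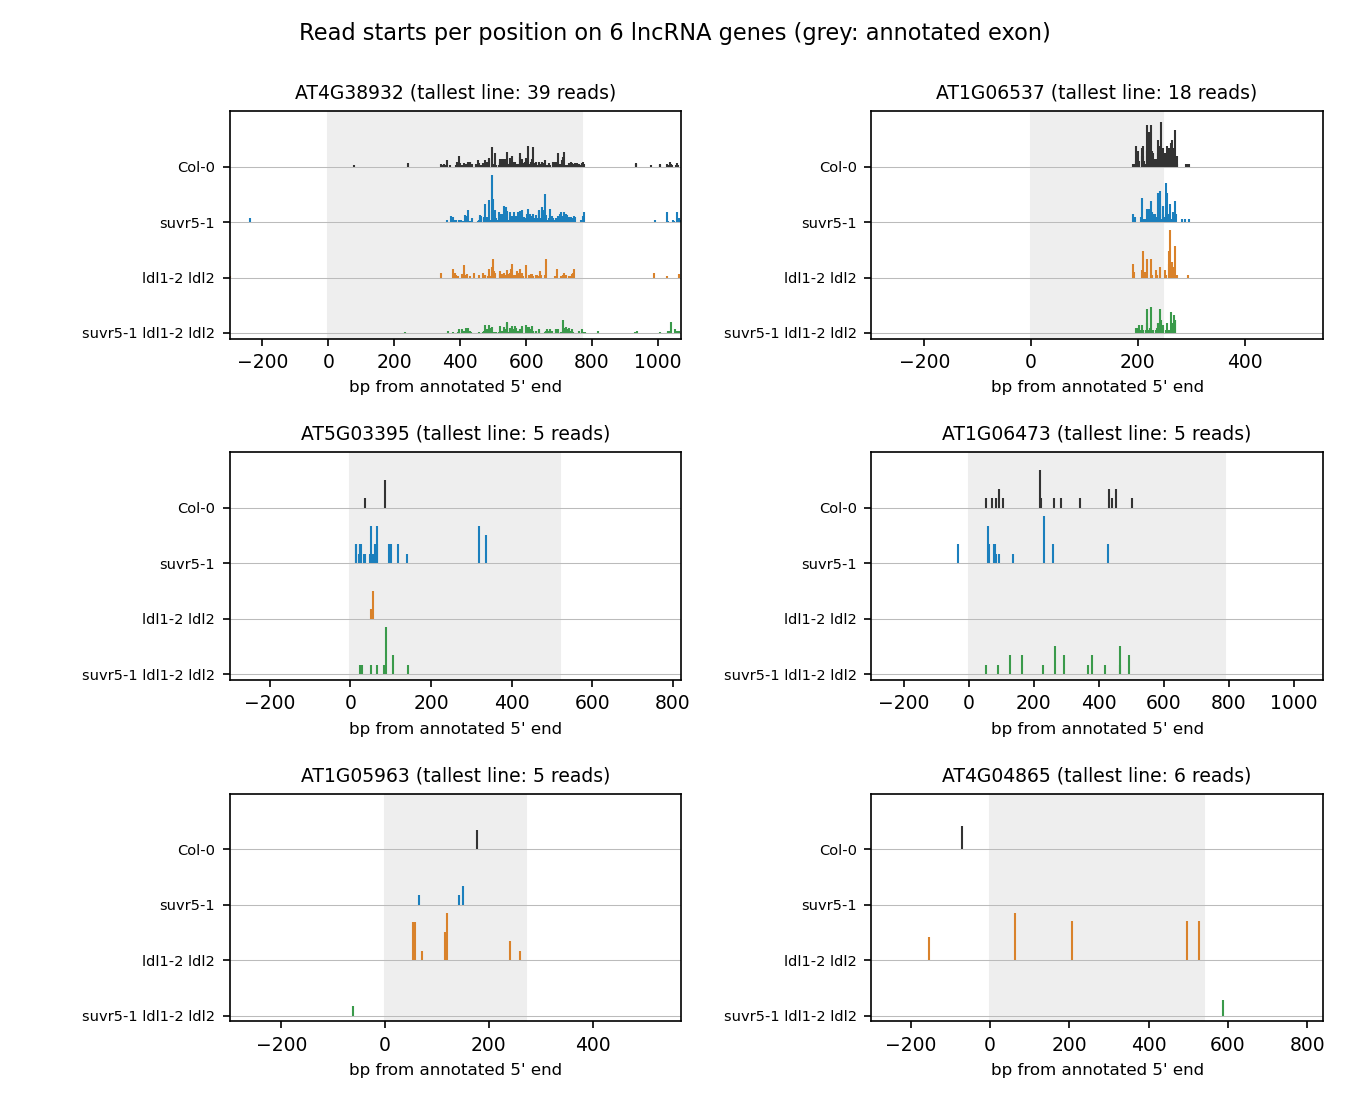
Read starts per position along 6 lncRNA genes, with the distance from the annotated 5′ end in bp on the horizontal axis, 1 row per library and line height in reads relative to the tallest line of the panel; grey marks the exon. A read start is the leftmost base of a read on the chromosome, so on the minus strand genes it is the end nearest the 3′ end. The 21 reads of AT4G04865 stand at 4 positions, and the reads of AT1G06537 form a block across its annotated 3′ end.

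In the triple mutant against Col-0, no member was called higher and AT5G03615 was called lower among 11 tested, against 4.77% higher and 1.45% lower of 12069 genes; at 2-fold, AT3G03165 was higher and 2 members were lower, against 10.2% and 4.46%. An unadjusted P under 0.05 in Fisher's exact test was found for 4 of 11, 7 of 12 and 7 of 11 members in *suvr5-1*, *ldl1-2 ldl2* and the triple mutant, against 41.7%, 44.8% and 43.9% of all genes tested. Of all genes without exon overlap that passed the minimum, 47.9%, 51.9% and 53.7% had such a P. In that set the 4-fold calls were 3.74% higher and 2.24% lower in *suvr5-1*, 5.06% and 2.56% in *ldl1-2 ldl2*, and 6.46% and 2.08% in the triple mutant. The median log2 ratio in the triple mutant was -0.95 for the members and 0.13 for all genes without exon overlap that passed the minimum. It was -0.43 with a minimum of 50 reads, and its sign turned to 0.45 without a minimum and to 1.00 among the 4 tested members at least 500 bp from other exons. The 3 comparisons with Col-0 share that library.

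AT5G03615 (chr5:7891346-7891734, plus strand) had 9, 11, 2 and 0 reads. Both libraries that carry *ldl1-2 ldl2* had few reads. The ratio of *ldl1-2 ldl2* was 0.251 (0.0264 to 1.21) to Col-0 and 0.317 (0.0341 to 1.45) to *suvr5-1*, and neither passed the test (adjusted P = 0.148 and 0.254, Fisher's exact test with Benjamini-Hochberg adjustment). With 3 reads as the limit for the triple mutant, it was at least 3.07-fold lower there than in Col-0, which by itself does not reach 4-fold. The call is a description, since only the reads of Col-0 and *suvr5-1* together brought the gene past the minimum. Trimming 30 bp from the exon ends, counting each position once or the beta-binomial test ended the call. The nearest protein-coding gene, *HMGB6*, which encodes a high-mobility-group chromatin protein, lies 990 bp away and had 22, 104, 8 and 107 reads. *HMGB6* was called higher in the triple mutant, with a log2 ratio of 2.22. Its log2 ratio was 1.59 in *suvr5-1*, below 4-fold, and -1.23 in *ldl1-2 ldl2* (adjusted P = 1.85e-06 and 0.0699, Fisher's exact test with Benjamini-Hochberg adjustment).

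AT3G03165 (chr3:5380310-5380726, minus strand) had 10, 22, 22 and 35 reads, or 7.82, 11.1, 19.4 and 26.7 RPKM. It was lowest in Col-0 and highest in the triple mutant. The ratio of the triple mutant to Col-0 was 3.42 (1.66 to 7.74, adjusted P = 0.00111, Fisher's exact test with Benjamini-Hochberg adjustment). In *ldl1-2 ldl2* it was 2.48 (1.13 to 5.87) and in *suvr5-1* 1.43 (0.648 to 3.37), and neither passed the test (adjusted P = 0.0523 and 0.547, Fisher's exact test with Benjamini-Hochberg adjustment). With each position counted once, the log2 ratio of the triple mutant went from 1.72 to 1.11 and no longer passed (adjusted P = 0.188, Fisher's exact test with Benjamini-Hochberg adjustment). Against *suvr5-1* the triple mutant was higher at 2.40 (1.37 to 4.29, adjusted P = 0.00386, Fisher's exact test with Benjamini-Hochberg adjustment).

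AT1G06537 and AT2G05075, the members with the most reads after AT4G38932, were lower in every mutant than in Col-0 by Fisher's exact test without reaching 4-fold on whole exons, and neither passed the beta-binomial test in any mutant. AT1G06537 had 188, 91, 52 and 69 reads, or 248, 77.8, 77.4 and 88.9 RPKM. Its level in Col-0 was far above those in the 3 mutants, which lay close together. The ratios to Col-0 were 0.314 (0.241 to 0.405) in *suvr5-1*, 0.312 (0.225 to 0.426) in *ldl1-2 ldl2* and 0.358 (0.268 to 0.475) in the triple mutant (adjusted P = 8.55e-20, 1.13e-14 and 1.70e-13, Fisher's exact test with Benjamini-Hochberg adjustment). The beta-binomial test gave an adjusted P of 0.289, 0.256 and 0.358. Leaving ribosomal RNA genes out of the scale moved the log2 ratio of *suvr5-1* from -1.67 to -1.68. These genes held 20568 of the 3068226 reads in the scale of Col-0, so their removal could hardly move any ratio. Whether the excess of ribosomal RNA reads in Col-0 goes with the level of AT1G06537 was not tested. Between the mutants the ratios were 0.995 (0.694 to 1.41) for *ldl1-2 ldl2* against *suvr5-1*, and 1.14 (0.824 to 1.58) for the triple mutant against *suvr5-1*.

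The reads of AT1G06537 did not stop at its annotated end. In its window the reads were displaced by -24 bp against TAIR10.1, and the 200 bp past its 3′ end held 115, 79, 71 and 45 reads outside any gene. Taken with these, the ratios to Col-0 were 0.363 (0.299 to 0.440), 0.458 (0.368 to 0.567) and 0.367 (0.294 to 0.457), with all 3 intervals under 1. Trimming 30 bp from the exon ends left 49, 18, 27 and 14 reads and took the log2 ratio of *ldl1-2 ldl2* from -1.67 to -0.67 (adjusted P = 0.114, Fisher's exact test with Benjamini-Hochberg adjustment), whereas in *suvr5-1* it was -2.04, past 4-fold (adjusted P = 2.79e-07, Fisher's exact test with Benjamini-Hochberg adjustment). With trimmed ends AT1G06537 thus became the 1 lower call in *suvr5-1*, in place of AT5G01595. With each position counted once the log2 ratios were -0.98, -1.01 and -0.99, and none passed the adjusted P of 0.01 in Fisher's exact test with Benjamini-Hochberg adjustment.

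The related gene AT1G09125 matched AT1G06537 at 77.2% over 101 bp and had 142, 53, 32 and 124 reads. It was low in *suvr5-1* and *ldl1-2 ldl2* and near Col-0 in the triple mutant. Its log2 ratios to Col-0 were -2.05, -1.98 and -0.23 (adjusted P = 7.55e-20, 7.82e-14 and 0.343, Fisher's exact test with Benjamini-Hochberg adjustment). A second relative, AT5G00660 on chromosome 5, matched at 76.9% over 121 bp. The nearest protein-coding gene to AT1G06537, AT1G32360, lies 282 bp away and had 168, 319, 101 and 176 reads, without a call in any mutant. *AOX1D*, which encodes an alternative oxidase of mitochondria and is the next protein-coding gene on the side of AT1G09125, lies 3546 bp away and had 34, 61, 24 and 232 reads. It was called higher in the triple mutant, with a log2 ratio of 2.72.

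**Figure D4:**
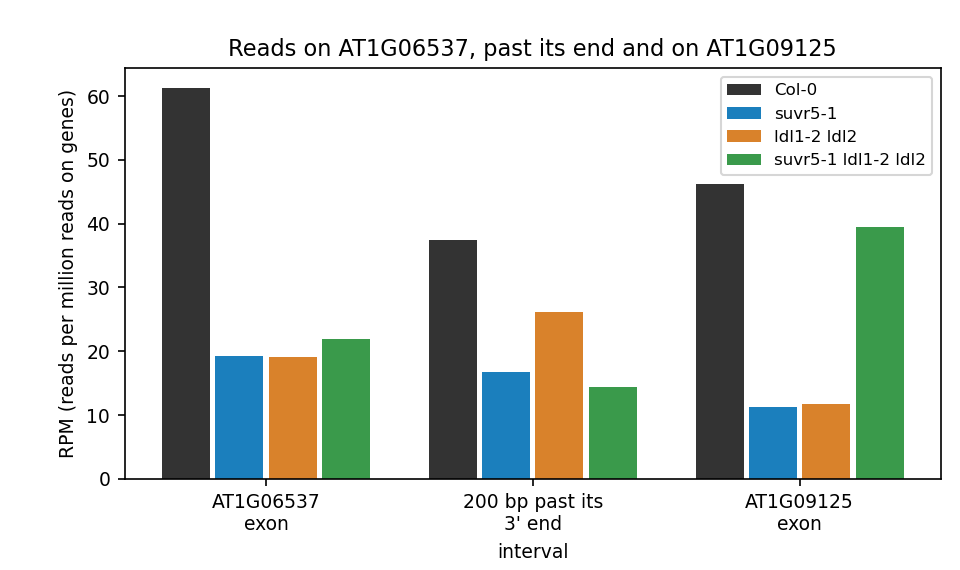
Level in RPM, scaled by reads on genes (vertical axis from 0), on the exon of AT1G06537, in the 200 bp past its 3′ end and on the exon of AT1G09125, with 1 bar per library and no replicates. Col-0 is highest in each of the 3 intervals, and on AT1G09125 the triple mutant, at 39.5 RPM, stands near Col-0 at 46.3 RPM.

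AT2G05075 (chr2:2930784-2931313, minus strand) had 82, 49, 28 and 43 reads, or 50.4, 19.5, 19.4 and 25.8 RPKM. As with AT1G06537, Col-0 was highest. The ratios to Col-0 were 0.387 (0.266 to 0.558), 0.385 (0.241 to 0.598) and 0.512 (0.346 to 0.750), with an adjusted P of 8.22e-07, 3.38e-05 and 0.00134 (Fisher's exact test with Benjamini-Hochberg adjustment), and of 0.525, 0.468 and 0.749 in the beta-binomial test. Only 32 bp separate it from *CAS1*, which encodes cycloartenol synthase of sterol synthesis, runs on the other strand and had 108, 221, 132 and 159 reads, a log2 ratio of 0.40, 0.46 and 0.52 in the 3 mutants. None of these values of *CAS1* passed an adjusted P of 0.01 in Fisher's exact test with Benjamini-Hochberg adjustment. After trimming 30 bp from its exon ends the gene kept 45, 25, 24 and 33 reads and the log2 ratios were -1.46, -0.71 and -0.46, of which only that of *suvr5-1* passed an adjusted P of 0.01 in Fisher's exact test with Benjamini-Hochberg adjustment.

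AT4G38932 (chr4:18151827-18152597, minus strand) had the most reads, 528, 769, 281 and 279, or 223, 211, 134 and 115 RPKM. Col-0 and *suvr5-1* differed by less than counting error on this scale, with the log2 ratio going from -0.08 to 0.17 when all nuclear reads set the scale, and both libraries with *ldl1-2 ldl2* were lower. The ratio to Col-0 was 0.944 (0.843 to 1.06) in *suvr5-1*, 0.600 (0.518 to 0.695) in *ldl1-2 ldl2* and 0.516 (0.445 to 0.598) in the triple mutant (adjusted P = 0.471, 2.55e-11 and 8.52e-19, Fisher's exact test with Benjamini-Hochberg adjustment). The beta-binomial test gave an adjusted P of 1, 0.815 and 0.717, so that none passed it. Against *suvr5-1*, the triple mutant stood at 0.547 (0.475 to 0.628), and against *ldl1-2 ldl2* at 0.860 (0.726 to 1.02). The exon lies 33 bp from AT4G38930 and 94 bp from AT4G38940, both on the plus strand. AT4G38930 had 103, 142, 105 and 145 reads and AT4G38940 had 33, 61, 37 and 39, and neither was called in any mutant. Bases 451 to 771 of the exon matched the protein-coding gene AT2G16490 at 83.9% over 323 bp, with a longest shared run of 26 bases, and AT2G16490 lies outside the stretches.

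For AT4G06880 and AT1G05133 no comparison with Col-0 passed the test. AT4G06880 (chr4:10579179-10579659, minus strand) had 10, 20, 3 and 6 reads, the largest distance being that of *ldl1-2 ldl2* from *suvr5-1* at a ratio of 0.261 (0.0497 to 0.881), without a call. That ratio is a description, since the reads of *suvr5-1* brought AT4G06880 past the minimum. AT4G06880 lies 406 bp from *MIR168a*, the precursor of the microRNA that targets *AGO1*, which had 1, 13, 0 and 7 reads. AT1G05133 (chr1:5146658-5147266, plus strand) had 2, 9, 6 and 3 reads and lies 1715 bp from *GAI*, a DELLA repressor of gibberellin signalling.

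Comparisons among the mutants ask what the triple mutant adds to each parent genotype. Against *suvr5-1*, no member was called in the triple mutant by Fisher's exact test, with 4 of 11 at an unadjusted P under 0.05 and no call by the beta-binomial test, against 46.8% of all genes tested at that P and calls of 3.62% higher and 1.61% lower. Against *ldl1-2 ldl2*, AT1G06473 was called higher and AT1G05963 and AT4G04865 lower, against 4.05% and 2.58%. These are the same 3 genes that were called between *ldl1-2 ldl2* and Col-0, and the reads of the *ldl1-2 ldl2* library enter both comparisons and brought AT1G05963 and AT4G04865 past the minimum. AT1G06473 rose from no read to 22, at least 6.35-fold; AT1G05963 fell from 20 to none, at least 7.70-fold, and AT4G04865 from 21 to none, at least 8.09-fold. In *ldl1-2 ldl2* against *suvr5-1*, AT1G05963 and AT4G04865 were called higher and AT5G03395 and AT1G06473 lower, against 3.53% and 2.51%. An unadjusted P under 0.05 was found for 3 and 6 of 12 members in these last comparisons, against 46% and 48.3% of all genes tested. Of all genes without exon overlap that passed the minimum, 55.7%, 54.4% and 53.7% had such a P in the 3 comparisons, in the order given. Their 4-fold calls were 4.27% higher and 2.21% lower, 5.24% and 3.00%, and 3.12% and 3.31%. The median log2 ratio of the members was -0.85, -0.01 and 0.00 in these 3 comparisons, in the order given, and that of all genes without exon overlap that passed the minimum was 0.13, 0.17 and -0.05.

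None of 17 characterised noncoding RNAs listed for comparison was among the 12 genes. Of these, 6 lay in the stretches. *IPS1*, a mimic of the target of miR399 induced by phosphate starvation, had no read in any library, and its homolog *AT4* (AT5G03545, annotated as protein-coding) had 20, 0, 7 and 0 reads. *AT4* was called lower in *suvr5-1* and in the triple mutant (adjusted P = 8.70e-08 and 4.77e-06, Fisher's exact test with Benjamini-Hochberg adjustment). Of 13 phosphate starvation genes in the stretches, 12 of them tested in *suvr5-1* and 13 in the triple mutant, 0 were called higher and 1 lower in *suvr5-1*, and 0 in either direction in the triple mutant. In *ldl1-2 ldl2*, 1 of 12 was called lower. At 2-fold, 1 was higher and 3 lower in *suvr5-1*, 1 and 1 in *ldl1-2 ldl2*, and 2 and 1 in the triple mutant. Over all genes tested, 4-fold calls were 2.58% higher and 1.83% lower in *suvr5-1*, 4.24% and 2.06% in *ldl1-2 ldl2* and 4.77% and 1.45% in the triple mutant, and at 2-fold 6.18% and 4.99%, 8.78% and 6.17%, and 10.2% and 4.46%. *TAS3*, the precursor of small RNAs that target auxin response factors, had 46, 119, 42 and 35 reads and was not called. *DRIR*, known from drought responses, had 0, 4, 0 and 1 reads, and *ELENA1*, known from immune responses, had 1, 0, 0 and 0. The annotated *COOLAIR* gene AT5G01675, antisense to the floral repressor *FLC* and sharing its exons, had 1, 7, 24 and 32 reads, which without strand cannot be told apart from *FLC*. On these reads AT5G01675 was called higher in *ldl1-2 ldl2* and in the triple mutant (adjusted P = 2.50e-06 and 6.66e-08, Fisher's exact test with Benjamini-Hochberg adjustment). Of 7 genes for RNA decay and cap binding in the stretches, none was called in any mutant at 4-fold, and 1 was lower at 2-fold in *suvr5-1* and 1 in *ldl1-2 ldl2*, to be read against the same shares.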

How the data were processed

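The data were mRNA-Seq reads of poly(A) RNA from leaves, 1 library per genotype, grouped by GEO's labels. The authors mapped the reads with Bowtie, per the labels (version not given in the sources used here), and deposited 1 line per read with chromosome, strand and leftmost position; this deposited value is a position, a unit of its own and not a count or level, and no gene counts were used. The assembly used for mapping and the treatment of reads with several matches were not given in the sources used here. Positions past the TAIR10.1 chromosome ends show that it was not TAIR10.1, so genes were counted only in stretches of 50.34 Mb where the displacement between reads and annotated exons was -27 to 16 bp in 202 windows of 250 kb.

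Read starts on merged exons were counted on both strands with Python 3.11.15 and scaled by reads on genes, the sum over genes. The libraries held 10406023 to 15083462 mapped reads. Ratios carry exact (Clopper-Pearson) 95% intervals, which cover counting error only, as reads without molecular identifiers are not independent molecules. Tests were two-sided Fisher's exact tests with Benjamini-Hochberg adjustment over all genes with a read in either library (scipy 1.17.1), called past 4-fold at an adjusted P under 0.01. Related sequences were found with BLAST+ 2.17.0. Named genes were the 10 members with the most reads, the members called in any mutant against Col-0, members with a symbol or on the list of characterised lncRNAs, and the protein-coding neighbours of these; AT1G05133, AT1G09125, *MIR168a*, *ATA20* and the genes on the other lists were named after their values were seen. Members and lists were chosen with earlier results of these data known. Alternatives were other scalings, distinct positions, whole spans, trimmed ends, other read minimums, distance from other exons, a beta-binomial test and a 2-fold threshold.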

Additional observations from a re-analysis of the deposited data

Results flagged for a closer look

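The effect of *ldl1-2 ldl2* on AT1G05963 had opposite signs in the wild-type and in the *suvr5-1* background. The reads went from 2 (Col-0) to 20 (*ldl1-2 ldl2*) in the first background, and from 4 (*suvr5-1*) to 0 (triple mutant) in the second. With 0.5 read added to each library the log2 ratios were 3.21 and -2.58, which differ by 5.79. The difference itself was not tested, each side rests on 1 pair of libraries, and the step from 4 reads to 0 did not pass the test (adjusted P = 0.263, Fisher's exact test with Benjamini-Hochberg adjustment), with an exact interval of the ratio that reaches 2.28 and so includes no change. With 3 reads in place of none, that ratio was 1.13. The *ldl1-2 ldl2* library alone brought the gene past the read minimum.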

How the results depend on the processing

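The counts of called genes were small. Under the alternatives, 49 recomputed counts of calls higher and 43 of calls lower stayed within 1.5 times, and 17 and 23 did not. Counts of 0 that stayed 0 are among those that stayed. They came from calls higher in the triple mutant against Col-0 and against *suvr5-1*, and from its calls lower against *suvr5-1*. When each position and strand was counted once, calls higher fell to 0 in *ldl1-2 ldl2* against Col-0, in the triple mutant against *ldl1-2 ldl2* and in *ldl1-2 ldl2* against *suvr5-1*, and calls lower fell to 0 in all 5 comparisons that had any. With the beta-binomial test at a dispersion of 0.1, calls higher were 0 in *suvr5-1* against Col-0 and in the triple mutant against *ldl1-2 ldl2* and 1 in *ldl1-2 ldl2* against Col-0 and against *suvr5-1*, and calls lower were 0 in each mutant against Col-0 and in *ldl1-2 ldl2* against *suvr5-1*.

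A minimum of 50 reads left 6 genes, with 0 calls higher in *ldl1-2 ldl2* against Col-0 and against *suvr5-1*, and 0 lower in *suvr5-1* and the triple mutant against Col-0 and in the triple mutant against *ldl1-2 ldl2*, and the median of the triple mutant against *suvr5-1* turned from -0.85 to 0.30. No minimum, with 649 genes of which 63 to 83 had a read, gave 4 and 5 calls higher in *ldl1-2 ldl2* against Col-0 and *suvr5-1*, 1 higher in the triple mutant against Col-0, a median of 0.45 in place of -0.95 for the latter, and medians of 1.38 and 2.18 for the triple mutant against *ldl1-2 ldl2* and *suvr5-1*. Keeping the 5 members at least 500 bp from other exons left 1 call higher in *ldl1-2 ldl2* against Col-0 and *suvr5-1*, 0 higher and 1 lower in the triple mutant against *ldl1-2 ldl2*, 0 lower in *suvr5-1* and in *ldl1-2 ldl2* against Col-0, and 1 lower in *ldl1-2 ldl2* against *suvr5-1*, and it turned the sign of the median against Col-0 from -0.08 to 0.89, from -1.02 to 1.27 and from -0.95 to 1.00 in the 3 mutants. A 2-fold threshold gave 1 higher in the triple mutant against Col-0 and against *suvr5-1*, and 3, 3 and 2 lower in *suvr5-1*, *ldl1-2 ldl2* and the triple mutant against Col-0. Whole gene spans gave 0 lower in *suvr5-1* against Col-0, as AT5G01595 drops out, and trimmed exons gave 0 lower in the triple mutant and left 1 lower in *suvr5-1*, AT1G06537 in place of AT5G01595.

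All nuclear reads as the scale gave 0 lower in *suvr5-1* against Col-0 and 1 lower in the triple mutant against *suvr5-1*, and turned the median of the members in *suvr5-1* from -0.08 to 0.17; it moved the median of all genes from 0.02 to 0.27, from 0.16 to -0.11 and, for *ldl1-2 ldl2* against *suvr5-1*, from -0.05 to -0.24, and the share of calls that were higher from 58.5% to 74.3%, from 69.2% to 49.2% and from 58.5% to 44.5%. Size factors moved that of the triple mutant from 0.14 to 0.03 and, against *ldl1-2 ldl2*, from 0.19 to 0.04, with 51.7% of calls higher in place of 61.1%. Over all genes, calls higher and lower of *suvr5-1*, *ldl1-2 ldl2* and the triple mutant against Col-0 went from 304 and 216, 497 and 242, and 576 and 175 to 132 and 80, 140 and 109, and 300 and 100 with distinct positions, and to 32 and 49, 90 and 19, and 211 and 33 with the beta-binomial test. Distinct positions moved the median of all genes from -0.06 to -0.19 in *ldl1-2 ldl2* and from 0.14 to -0.06 in the triple mutant. Among single genes, the log2 ratio to Col-0 turned sign for AT4G38932 in *suvr5-1* with all nuclear reads (0.17), and in the triple mutant for AT1G05133 with distinct positions (-0.088) and for AT1G06473 with distinct positions (-0.19) and size factors (-0.0048). The cause of these moves was not tested. No paired analysis was possible because each genotype has 1 library, and no replicate could be left out.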
